A study of Mus musculus with 15 samples.

Results

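The Krüppel-like factors (KLF) described here are the 9 genes Klf2, Klf3, Klf4, Klf5, Klf6, Klf7, Klf9, Klf10 and Klf13. Their chromatin was read as every merged ATAC-seq peak that overlapped a gene body or lay within 50 kb of it in mm10, which gave 85 of the 67945 peaks in the table. Klf6 had 15 of these peaks, Klf13 had 12, Klf7 had 11, Klf2 and Klf3 had 10 each, Klf4 and Klf9 had 8 each, Klf10 had 7 and Klf5 had 4. The median over 18326 genes with a peak in such a window was 7. The peak farthest from its gene body inside the windows lay 10.8 to 49.1 kb away with a mean of 2.29 to 27.4 CPM, and the nearest one outside lay 50.5 to 73.1 kb away with a mean of 1.42 to 53.7 CPM. Levels are CPM, the count of a peak scaled to the total reads in peaks of its library after that total was adjusted by the TMM factor of edgeR.

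The study asked which chromatin regions differ in accessibility between pancreatic tumours rich and poor in T cells. ATAC-seq, in which a transposase cuts and tags open DNA, was run on 50000 tumour cells sorted 3 weeks after tumour cell clones had been placed under the skin of C57BL/6 mice, with no treatment. Each library was a different clone, and the T cell label describes the tumours that the clone forms. The T cell high group held 6 clones (2838c3, 6421c2, 6499c4, 6555c3, 6620c1 and 7160c2) and T cell low held 7, namely 6694c2, 6556c3, 6499c3, 6422c1, 2699c4 and the pair 6419c1 and 6419c5. That pair shares a tumour number in its names, and so do 6499c3 and 6499c4 across the groups. The clones carry no genotype in the labels, and clones of an intermediate class were not analysed here.

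KLF proteins bind GC-rich DNA and CACCC elements through zinc fingers at the C-terminal end, and differ in the cofactors that their N-terminal parts recruit. Klf2, Klf4, Klf5, Klf6 and Klf7 belong to the branch that mainly activates transcription through acetyltransferases, Klf3 to the branch that represses through CtBP corepressors, and Klf9, Klf10 and Klf13 to the branch that binds SIN3 corepressors. In epithelia Klf4 is known for cell cycle arrest and differentiation, Klf5 for proliferation, and Klf10 as an early gene of TGF-beta signalling.

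Promoter sequences are shown for 4 members because their promoters differ in the elements through which KLF genes are regulated, including regulation by KLF proteins. The 250 bases before the annotated start are from RefSeq (GRCm38.p6, the assembly that mm10 represents), which matched 7 of the 9 members, not Klf5 and Klf10. They are written from 5′ to 3′ on the strand of the gene. Capitals mark the GC box, spelled GGGCGG, as well as the CACCC box and the CCAAT box, both named by their letters, and the MEF2 element, each on either strand, and adjoining elements may overlap.
Klf2 (chr8:72318812-72319061, plus strand): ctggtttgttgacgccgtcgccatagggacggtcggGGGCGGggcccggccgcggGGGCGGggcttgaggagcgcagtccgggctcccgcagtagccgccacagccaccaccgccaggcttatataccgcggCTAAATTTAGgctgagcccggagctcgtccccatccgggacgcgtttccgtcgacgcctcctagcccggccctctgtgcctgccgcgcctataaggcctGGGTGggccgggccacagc
Klf3 (chr5:64803271-64803520, plus strand): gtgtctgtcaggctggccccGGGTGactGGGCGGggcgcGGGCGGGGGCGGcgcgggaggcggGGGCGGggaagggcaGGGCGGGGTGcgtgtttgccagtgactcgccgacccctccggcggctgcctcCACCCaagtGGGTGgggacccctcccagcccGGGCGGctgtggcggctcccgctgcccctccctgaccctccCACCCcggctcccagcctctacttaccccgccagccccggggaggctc
Klf6 (chr13:5861239-5861488, plus strand): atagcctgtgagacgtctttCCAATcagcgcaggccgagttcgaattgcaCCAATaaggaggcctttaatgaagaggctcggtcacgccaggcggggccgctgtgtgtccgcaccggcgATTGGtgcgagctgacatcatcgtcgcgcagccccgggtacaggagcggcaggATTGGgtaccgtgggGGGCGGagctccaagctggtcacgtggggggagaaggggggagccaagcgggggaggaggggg
Klf9 (chr19:23140976-23141225, plus strand): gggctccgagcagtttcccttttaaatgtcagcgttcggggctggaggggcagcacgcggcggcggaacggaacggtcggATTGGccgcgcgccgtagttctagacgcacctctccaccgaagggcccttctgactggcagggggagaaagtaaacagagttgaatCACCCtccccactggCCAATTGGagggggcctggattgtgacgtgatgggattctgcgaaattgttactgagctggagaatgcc

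All 7 matched windows lay wholly inside the promoter peak of their gene, so these sequences lay in regions that had been called open. The GC box stood in 6 of 7 members, against 32.74% of 32851 promoters of the same length, and was missing from Klf9 alone among the 7. The share of G and C in the 7 sequences ran from 59.2% (Klf7) to 78.4% (Klf3), against a median of 52.4% over all promoters. The part of this base composition in the GC box and CACCC box counts was not tested. Klf3 held 6 GC boxes and 5 CACCC boxes, and Klf4 held 4 GC boxes. The CACCC box was found in 5 of 7 members (52.01% of all promoters) and the CCAAT box in 3 of 7 (33.85%), with 4 copies in Klf6. A MEF2 element, the site through which the ERK5 pathway is known to switch on Klf2, began 118 bases before the start of Klf2 and was in none of the other 6, against 0.5084% of all promoters. Klf9 was the 1 member of the 7 with a FOXO element (GTAAACA, 3.166% of all promoters). It was also the 1 member with a match to TGANTCA, a loose AP-1 pattern in which N is any base (6.749%). That match reads TGAATCA, with A at N, and overlaps the marked CACCC box. CRE (TGACGTCA), TATA box (TATAAA), SMAD (GTCTAGAC), CArG box and glucocorticoid response elements were found in 0 of 7. These are matches of letters and show no binding.

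The libraries held between 968296 (7160c2) and 7369228 (6419c1) reads in peaks, and with the TMM-scaled totals 1 read was worth 0.973 CPM in the first and 0.139 CPM in the second. Promoter peaks took between 38.1% and 47.8% of the reads, most in 6499c3, which was the highest of the 13 clones at 23.5% of all 11106 promoter peaks tested. The sort was checked with marker promoters. All 7 carcinoma epithelium markers had a promoter peak, with a summed level between 85.0 and 216.5 CPM. Of 13 leukocyte markers, 4 had one (Ptprc, Cd4, Cd53 and S100a8), with a summed level of 23.0 to 57.9 CPM in T cell high and 35.0 to 75.7 CPM in T cell low, and those without one included Cd3e, Cd3g, Cd8a, Cd79a, Itgam, Adgre1, Csf1r and Lyz2. Of 6 fibroblast markers only Col1a1 had a promoter peak (16.4 to 37.1 CPM), and none of the 5 endothelium markers had.

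All 9 genes had reads at the promoter peak in every clone, with 15.6 CPM as the lowest value. Per kb of peak, the mean level over 13 clones ran from 44.6 CPM at Klf6 through 49.2 at Klf2, 50.8 at Klf7, 54.0 at Klf4, 67.6 at Klf5, 70.0 at Klf10, 72.5 at Klf13 and 77.0 at Klf9 to 78.7 at Klf3. The lowest of these, Klf6, stood above 80.7% of all tested promoter peaks per kb and the highest, Klf3, above 96.9%. The remaining 76 peaks were weaker as a rule, and 15 of them had a mean above 20 CPM. Around Klf6, the promoter peak gave 21.2% of the reads of the window, and peaks at -24.0 kb and 31.5 kb from its centre reached 43.7 and 44.3 CPM per kb, next to 44.6 at the promoter. Distances are along the chromosome, with negative values toward lower coordinates. At Klf9 the peak 6.1 kb upstream held more reads than the promoter, with a mean of 121.8 CPM over 2438 bp against 102.4 CPM over 1331 bp, although it was lower per kb (49.9 against 77.0 CPM). At Klf5 the promoter held 73.4% of the reads.

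**Figure D1:**
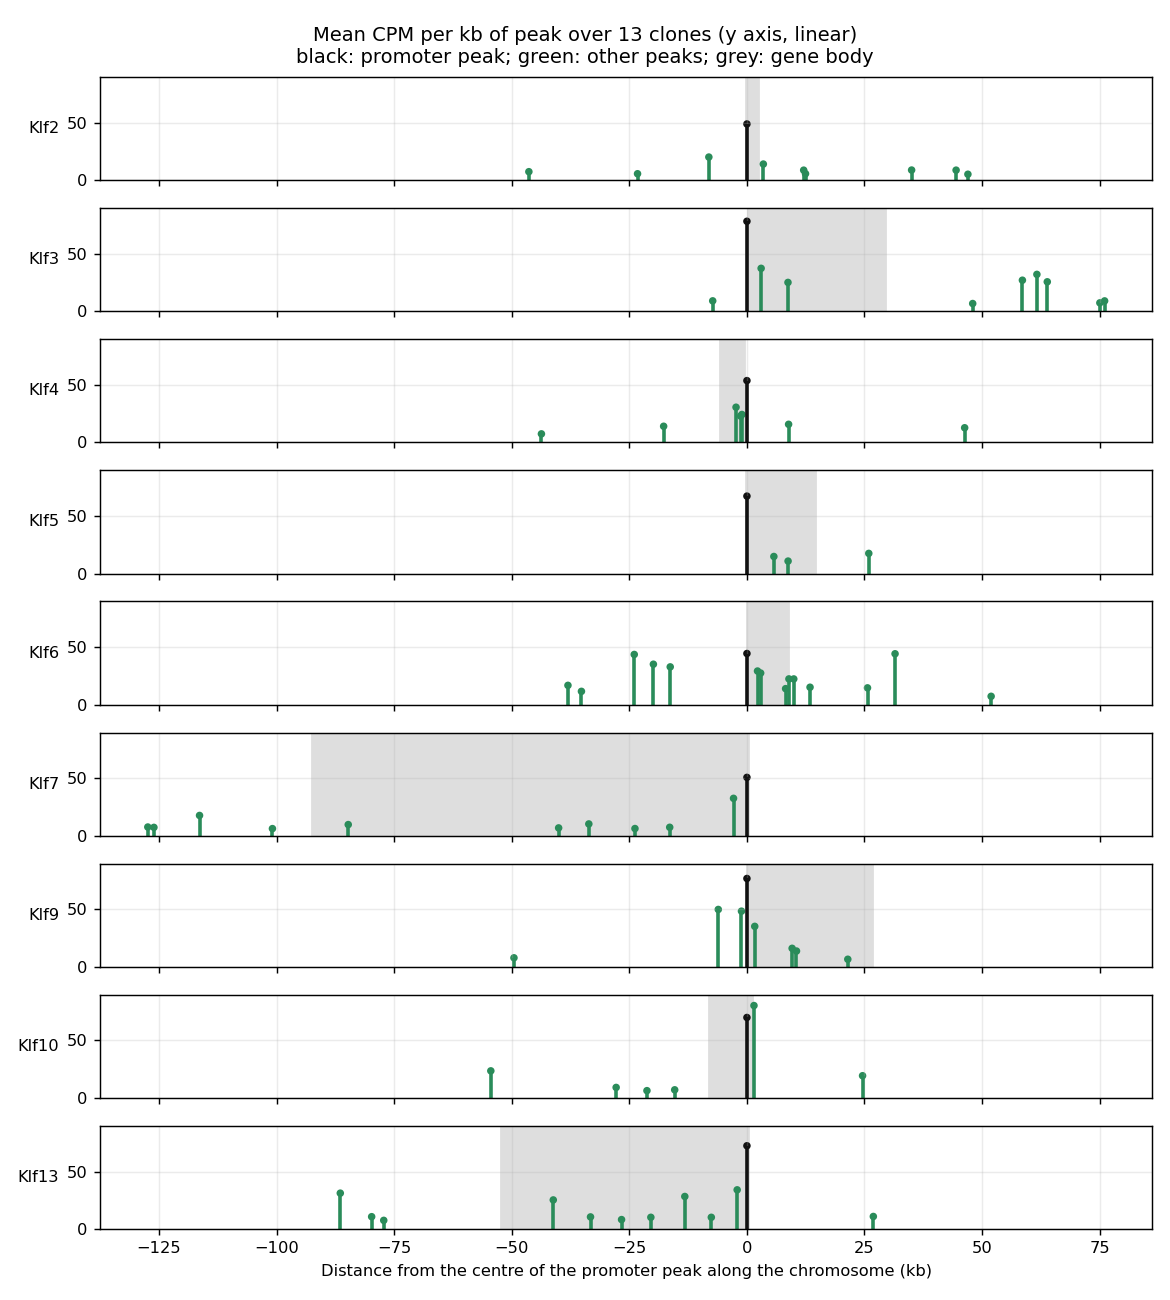
Positions and strength of the 85 KLF peaks. The x axis is the distance from the centre of the promoter peak in kb along the chromosome, the y axis is the mean CPM per kb of peak over 13 clones on a linear scale, black stems are promoter peaks, green stems other peaks and grey bands gene bodies. Klf6 has several peaks near the height of its promoter, while at Klf2 and Klf5 the promoter stands far above the rest.

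Between T cell high and T cell low, no KLF peak passed the test. Of the 85 peaks, 80 had enough reads to be tested, and 0 of 80 were called by edgeR's quasi-likelihood test at an adjusted p under 0.05 (0.0% of 59252 peaks tested were called), by DESeq2 or by limma-voom. Over all 59252 peaks, DESeq2 called 48 and limma-voom 0. The 5 untested peaks, 2 near Klf2 and 1 each near Klf3, Klf7 and Klf13, had means of 0.877 to 3.12 CPM. An unadjusted p under 0.05 was found at 3 of 80 KLF peaks, of which 1 had higher and 2 had lower values in T cell high, beside 6.83% of all peaks (3.86% with higher and 2.97% with lower values). The values of the groups overlapped at all 80, while they did not overlap at 0.162% of all peaks. The median log2 fold change, T cell high over T cell low, was -0.05 over the 80 peaks and 0.01 over all tested peaks. The 95% intervals of all 9 promoter peaks lay inside a log2 change of 1 in either direction, the widest reach being from -0.95 (Klf2) to 0.55 (Klf3). Of the 71 other tested peaks, 36 had intervals that narrow and 35 had intervals reaching past it.

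The reads of each window were also summed into 1 value per gene and clone, and 0 of 9 KLF sums passed the test over 18063 genes, of which 0.00554% were called. The sum of Klf2 was the 1 of 9 with an unadjusted p under 0.05, and it was lower in T cell high. Over all gene sums 7.15% had such a p, 3.03% higher and 4.12% lower. The groups overlapped in all 9 sums, and did not overlap in 0.0997% of all gene sums. Of the 9 sums 5 had a log2 fold change below 0, beside 55.1% of all, and the median was -0.03 over both. This split moved with the scaling, when the accessibility level of the surrounding chromosome (described with the surroundings of each gene) was used as an offset. All 9 sums were then below 0, beside 55.75% of all gene sums. So were all 9 promoter peaks, beside 61.65% of all genes with a promoter peak. The median of the 9 sums was then -0.09, against -0.02 over all sums. That of the 9 promoter peaks was -0.12, against -0.06 over all genes with a promoter peak.

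**Figure D2:**
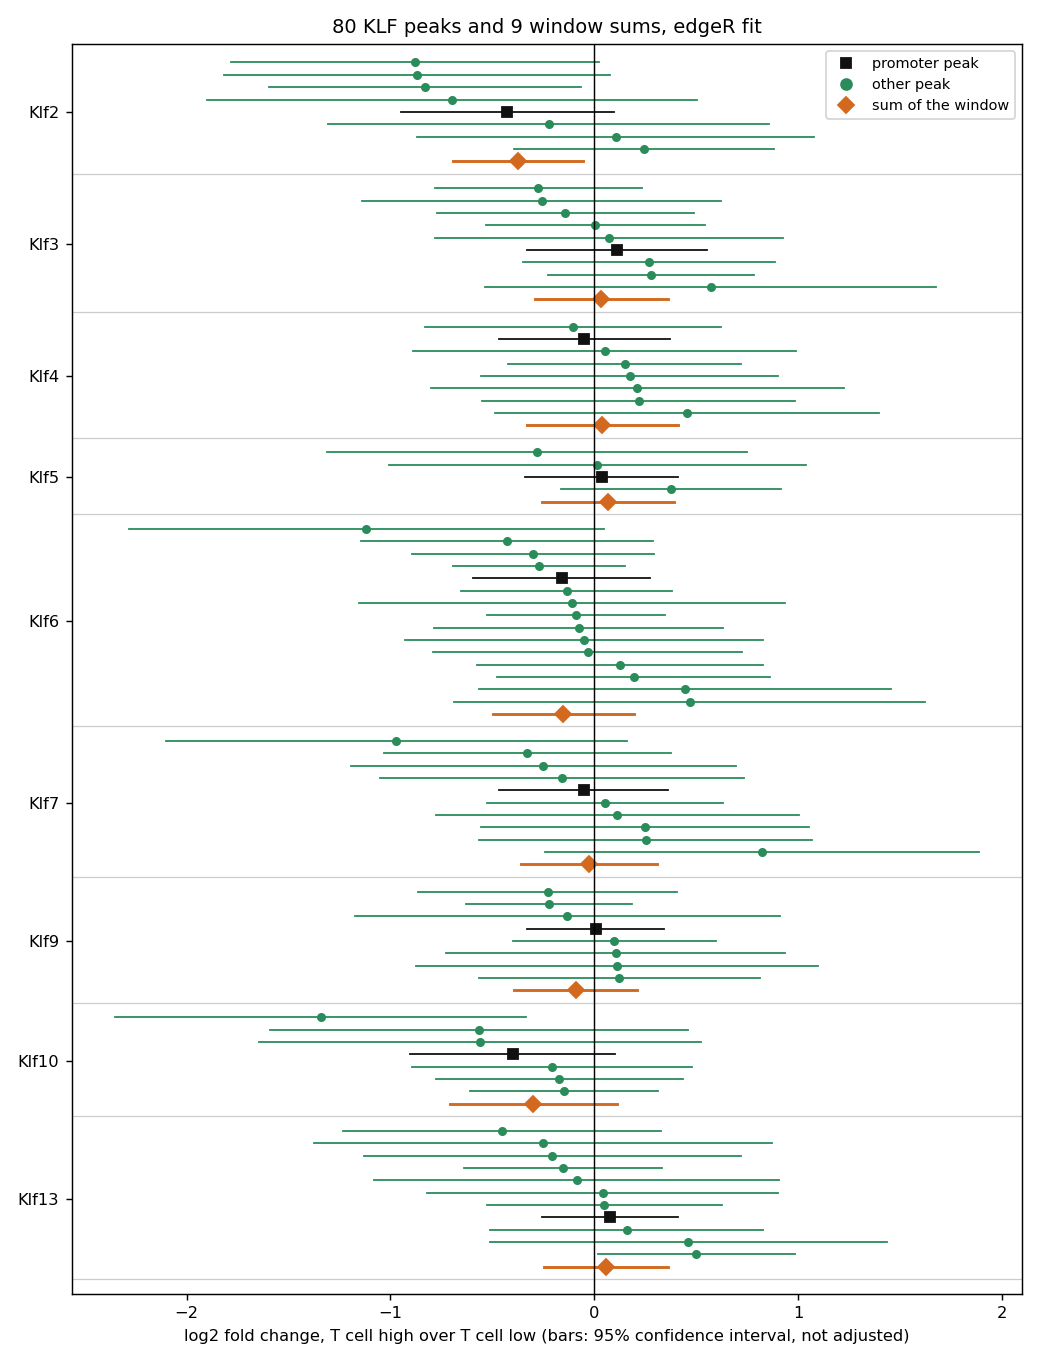
Differences between the groups at the KLF genes. The x axis is the log2 fold change, T cell high over T cell low, with 95% confidence intervals that are not adjusted for the number of tests; black squares are promoter peaks, green circles the other tested peaks and orange diamonds the window sums. All 8 symbols of Klf10, and 7 of the 9 of Klf2, lie left of 0.

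Klf2, known for quiescence and trafficking of lymphocytes and for flow sensing in endothelium, had the largest promoter difference of the members. At its promoter peak (chr8:72318588-72319776) the T cell high clones had 15.6, 55.2 and 67.2 CPM (lowest, median and highest) and the T cell low clones 37.4, 72.7 and 86.1 CPM. The groups overlapped, and the lowest value was that of 7160c2, where 16 reads were counted. The log2 fold change was -0.43 (SE 0.25, adjusted p = 0.787 by edgeR) and was -0.27 without 7160c2. Summed over the 10 peaks of the window, T cell high clones had 73.5, 97.5 and 132.8 CPM and T cell low clones 103.6, 135.0 and 145.2 CPM. Of the T cell high clones, 2838c3 (132.8 CPM) and 6620c1 (106.2 CPM) reached into the T cell low range, and the other 4 lay below it. The log2 fold change of the sum was -0.37 (SE 0.15, 95% interval -0.69 to -0.06, unadjusted p = 0.0229, adjusted p = 0.676 by edgeR). Without 6555c3 it was -0.31 with an unadjusted p of 0.058, and without the promoter peak -0.32 with an unadjusted p of 0.134.

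Among the single peaks of the Klf2 window, 6 of the 8 tested had a log2 fold change below 0, beside 48.7% of all peaks. Klf2 was the nearest gene of only 5 of the 10 window peaks. Of those below 0, the peak at -46.4 kb lay nearest to Ap1m1 and those at 35.0 and 44.5 kb nearest to Eps15l1. The smallest p belonged to the peak 35.0 kb from the promoter (chr8:72353640-72354763), whose nearest gene is Eps15l1, a gene of endocytosis. It had 4.39, 6.18 and 10.2 CPM in T cell high and 6.12, 12.8 and 22.2 CPM in T cell low, and the log2 fold change was -0.83 (SE 0.37, adjusted p = 0.712 by edgeR), with an unadjusted p under 0.05 in 7 of the 13 fits that each left out 1 clone. The peak 8.1 kb upstream, the strongest after the promoter, went the other way with a log2 fold change of 0.24, and its highest clone was 7160c2 (31.2 CPM), the clone with the lowest promoter. The summed level of the leukocyte marker promoters was also lower in T cell high, 45.9 ± 14.6 CPM (SD, n = 6) against 58.9 ± 16.3 CPM (SD, n = 7), and its part in the Klf2 values was not tested. Fewer cells of a type and less open chromatin per cell cannot be told apart in such bulk libraries.

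At Klf4 and Klf5 the promoter differences were small beside the spread between clones. The Klf4 promoter peak (chr4:55532088-55533478) had 59.9, 73.7 and 85.7 CPM in T cell high and 49.4, 66.6 and 117.8 CPM in T cell low, a log2 fold change of -0.05 (95% interval -0.47 to 0.37). The T cell low clones held both the lowest (6422c1) and the highest (6499c3) value. Inside the Klf4 gene body, the peak 1.3 kb from the promoter centre had the smallest p of the window, with 3.79, 5.73 and 8.81 CPM in T cell high and 1.66, 4.04 and 11.5 CPM in T cell low (log2 fold change 0.45, adjusted p = 0.888 by edgeR). Of the 8 Klf4 peaks, 6 were highest in 6694c2, a T cell low clone that was the highest at 5.59% of all tested peaks. Klf5, which in pancreas is known as a factor of ductal and of low-grade tumour cells, had 62.4, 86.4 and 111.1 CPM in T cell high and 61.7, 83.9 and 113.4 CPM in T cell low at its gene-end peak (chr14:99298201-99299442), a log2 fold change of 0.04 (95% interval -0.34 to 0.41). Its peak at 25.9 kb had 14.2, 19.6 and 25.3 CPM against 10.9, 13.95 and 21.7 CPM (log2 fold change 0.37, adjusted p = 0.823 by edgeR).

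Klf6, known as a tumour suppressor with oncogenic splice forms, had 46.4, 59.3 and 84.5 CPM in T cell high and 38.1, 65.8 and 94.6 CPM in T cell low at its promoter (chr13:5860742-5862237). The log2 fold change was -0.16 (95% interval -0.60 to 0.27). Its window sum in 2838c3 was 440.5 CPM, apart from the other 5 T cell high clones at 260.1 to 277.6 CPM. Without that clone the log2 fold change of the sum went from -0.15 to -0.30. The intragenic peak at 8.2 kb had the smallest p of the window, with 0.0, 1.09 and 4.39 CPM in T cell high and 1.95, 4.08 and 6.03 CPM in T cell low (log2 fold change -1.12, adjusted p = 0.740 by edgeR), counted on 0 to 18 reads per clone. Klf7, known for neuronal outgrowth, is the longest of the genes, and 8 of its 10 other peaks averaged less than 10 CPM. Its promoter (chr1:64121029-64122663) had 56.5, 81.5 and 106.9 CPM in T cell high and 55.5, 91.1 and 108.2 CPM in T cell low, a log2 fold change of -0.05 (95% interval -0.47 to 0.36). The Klf7 peak with the smallest p, at -23.8 kb in the gene body, had 0.843, 2.58 and 3.89 CPM against 1.36, 4.18 and 10.9 CPM (log2 fold change -0.97, adjusted p = 0.775 by edgeR).

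Klf3, the CtBP-binding repressor of the set, had the highest level per kb among the 9 peaks taken as promoter peaks, and its promoter values spread widely. At chr5:64802747-64803863 the T cell high clones had 49.7, 91.1 and 146.2 CPM and the T cell low clones 54.3, 81.9 and 115.0 CPM, so the T cell high group held both ends. The log2 fold change was 0.11 (95% interval -0.33 to 0.55) and -0.07 without 6421c2, the highest clone. A group of 3 peaks 58.6 to 63.9 kb from the promoter, beyond the end of the gene, averaged 21.1 to 23.7 CPM. The last of them had the smallest p, with 19.4, 25.6 and 33.3 CPM in T cell high and 11.9, 23.8 and 29.0 CPM in T cell low (log2 fold change 0.28, adjusted p = 0.867 by edgeR).

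Klf9 and Klf13, of the SIN3-binding branch, had the most even promoters of the family. Klf9 is a known target of glucocorticoid and thyroid hormone. Its promoter (chr19:23140580-23141910) had 80.5, 104.1 and 119.6 CPM in T cell high and 81.0, 96.6 and 141.3 CPM in T cell low, a log2 fold change of 0.01 (95% interval -0.33 to 0.34). The peak 6.1 kb upstream (chr19:23133935-23136372) had 62.3, 117.6 and 131.4 CPM in T cell high and 94.5, 122.8 and 191.0 CPM in T cell low (log2 fold change -0.22, adjusted p = 0.868 by edgeR). The clone 7160c2 was the lowest there at 62.3 CPM while its Klf9 promoter stood at 104.2 CPM, near the median. Klf13, known for the control of Ccl5 in T cells, had the promoter peak with the most reads, which was also the longest of the 85 peaks. It held 163.5, 207.1 and 243.4 CPM in T cell high and 157.1, 184.6 and 243.4 CPM in T cell low (chr7:63937212-63939922), a log2 fold change of 0.08 (95% interval -0.26 to 0.41). Beyond the far end of the gene, the peak at -86.5 kb (chr7:63851655-63852536) was the 1 KLF peak with higher values in T cell high at an unadjusted p under 0.05. It had 23.0, 30.0 and 48.1 CPM in T cell high and 15.7, 21.7 and 29.0 CPM in T cell low (log2 fold change 0.50, SE 0.23, adjusted p = 0.723 by edgeR). Without 6620c1, its highest clone, the log2 fold change was 0.35, and the unadjusted p was under 0.05 in 6 of the 13 fits that each left out 1 clone.

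At Klf10 a single clone, 6499c3, stood above the rest at both strong peaks. A pair of strong peaks lies at 1 end of Klf10, at chr15:38298868-38300117 (mean 87.6 CPM) and chr15:38300454-38301526 (mean 86.3 CPM). The second overlaps the gene end at 38300711 and reached 80.5 CPM per kb, above the 78.7 of the Klf3 promoter. The first ends inside the gene body and was taken as the promoter peak because its mean was higher, so the promoter values of Klf10 depend on that choice. The first had 60.4, 70.6 and 100.8 CPM in T cell high and 67.0, 77.4 and 205.8 CPM in T cell low. The highest value was that of 6499c3, and 6419c1 came next with 118.2 CPM. The log2 fold change was -0.40 (SE 0.24, adjusted p = 0.796 by edgeR) and -0.12 without 6499c3. At the second peak the values were 66.5, 84.3 and 92.5 CPM in T cell high and 61.9, 70.9 and 176.7 CPM in T cell low, a log2 fold change of -0.15 that became 0.09 without 6499c3. Of the 7 Klf10 peaks, 6 were highest in 6499c3, which was also the library with the largest share of reads in promoter peaks. That clone was the highest at 10.9% of all tested peaks. The smallest p of all 80 KLF peaks belonged to the Klf10 peak at -21.3 kb (chr15:38277831-38278640), which was weak, with 1.81, 2.47 and 4.22 CPM in T cell high and 2.65, 4.83 and 14.1 CPM in T cell low. Its log2 fold change was -1.34 (SE 0.49, unadjusted p = 0.0112, adjusted p = 0.650 by edgeR), and it kept an unadjusted p under 0.05 in all 13 fits that each left out 1 clone. The 2 clones above 10 CPM were 6499c3 and 6419c5.

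**Figure D3:**
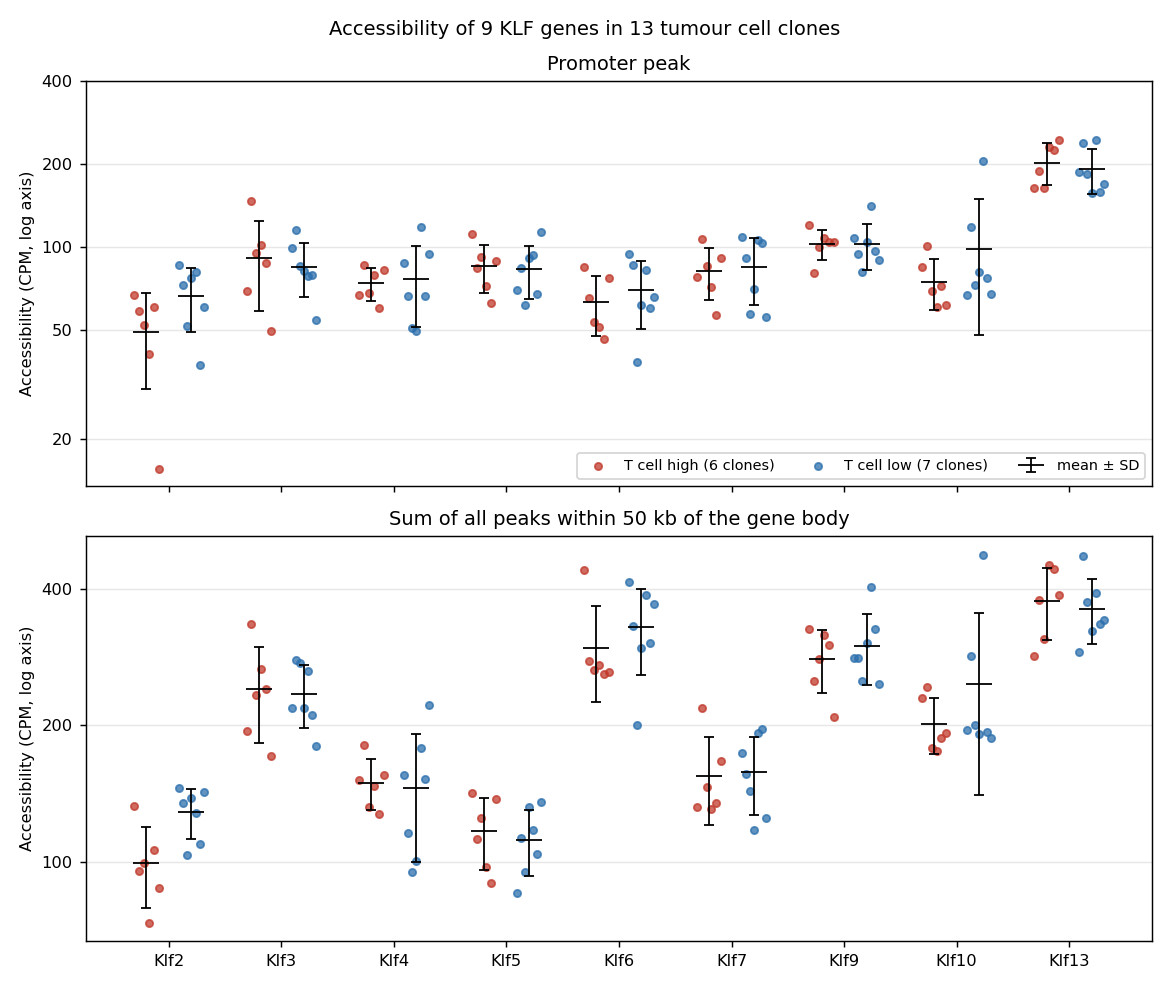
Accessibility of the 9 KLF genes in every clone. The y axes are CPM on a log scale, red points are the 6 T cell high clones, blue points the 7 T cell low clones, and black bars give the mean ± SD of a group; the upper panel shows promoter peaks and the lower panel window sums. The groups overlap for every gene in both panels, 7160c2 lies alone at the Klf2 promoter (15.6 CPM) and 6499c3 at Klf10 (205.8 CPM).

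The peaks around a gene can be higher or lower together in a clone, so each window sum was set beside the level of the surrounding peaks, the median log2 deviation of tested peaks within 2 Mb without the nearest 100 kb. At Klf10 the surroundings of 6499c3 were the highest of any clone at 0.63, while its Klf10 sum deviated by 1.14. At Klf6 the surroundings of 2838c3 were at 0.44 and the sum at 0.52, and at Klf3 the surroundings of 6421c2 were at 0.44 and the sum at 0.52. At Klf4, by contrast, 6421c2 had surroundings at 0.80 and a sum at 0.34, and 6694c2 had surroundings at 0.33 and a sum at 0.63. With these levels taken off, the SD over clones of the log2 sum went from 0.39 to 0.22 at Klf10, from 0.28 to 0.18 at Klf3 and from 0.24 to 0.14 at Klf13, and at Klf9 it was 0.24 before and after. The difference between the groups in the surroundings, T cell high minus T cell low, had the sign of the log2 fold change of the sum at 7 of 9 genes, all but Klf7 and Klf9. This difference in the surroundings was -0.15 at Klf2, -0.21 at Klf10 and only -0.006 at Klf6, and 0.14 at Klf3, 0.14 at Klf4, 0.11 at Klf5 and 0.13 at Klf13. The share of all gene sums with the same sign as their surroundings was not computed. With the regional level as an offset in the fit, the log2 fold change of the Klf10 sum was -0.05 and that of the Klf2 sum -0.24 (unadjusted p = 0.0437, adjusted p = 0.896 by edgeR). The sums of Klf3, Klf4, Klf5 and Klf13, at 0.03, 0.04, 0.07 and 0.06 without the offset, were at -0.12, -0.08, -0.05 and -0.08 with it, and none of these had an unadjusted p under 0.05. DNA copy number was not analysed here.

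**Figure D4:**
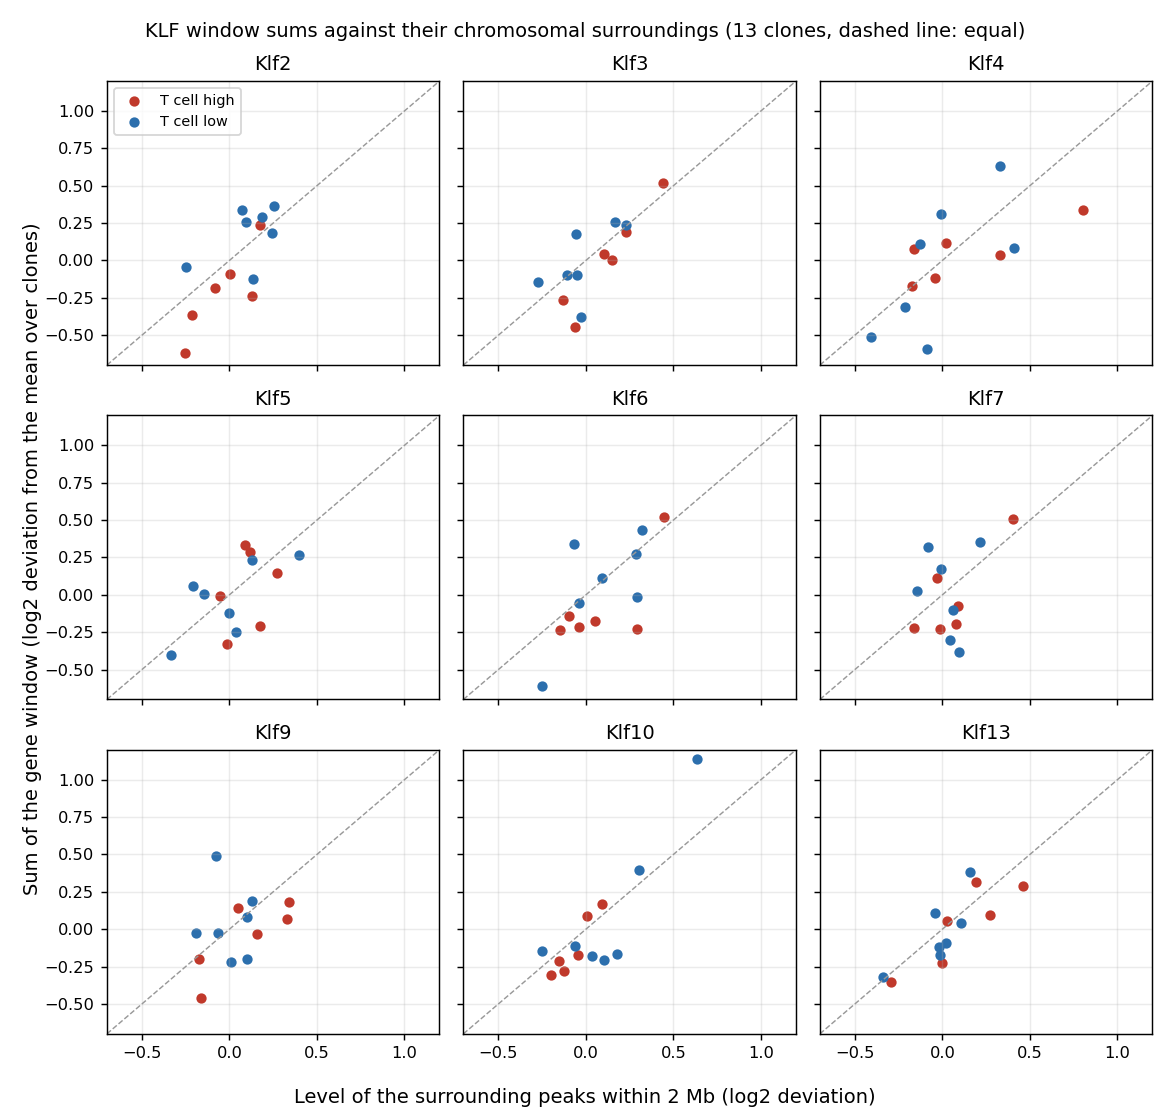
KLF window sums beside their chromosomal surroundings. The x axis is the log2 deviation of the surrounding peaks within 2 Mb, the y axis the log2 deviation of the window sum from its mean over clones, red points are the T cell high group, blue points the T cell low group, and the dashed line marks equal values. For Klf10 the clone 6499c3 is far to the upper right at 0.63 and 1.14.

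The KLF promoters differed in how far they varied between clones. The SD over 13 clones of log2 CPM had a median of 0.36 over the 9 promoter peaks and of 0.42 over all tested promoter peaks, and 0.29 against 0.36 after the regional level was taken off. Before that step the SD was smallest at Klf9 (0.22, a value that 1.38% of all promoter peaks fell under), then at Klf13 (0.25) and Klf5 (0.29), and largest at Klf10 (0.48, above 63.9% of promoter peaks) and Klf2 (0.64, above 82.4%). After it the order changed, with 0.23 at Klf13, 0.26 at Klf9 and at Klf5, 0.29 at Klf10 and 0.50 at Klf2. The KLF promoter peaks were stronger, with a median of 83.9 CPM against 31.0 CPM over all promoter peaks, and stronger peaks carry less counting noise. From the lowest to the highest clone the promoters spanned from 1.55-fold at Klf13 to 5.52-fold at Klf2. The 71 other tested peaks had a median SD of 0.63, against 0.71 for all peaks that are no promoter peak. Of the 9 promoters, 4 were highest in 6499c3 (Klf4, Klf9, Klf10 and Klf13), which was highest at 23.5% of all promoter peaks, and 3 were highest in 2699c4 (Klf2, Klf6 and Klf7), which was highest at 13.02% of all.

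Clones with the same tumour number also differed. Between 6419c1 and 6419c5, both T cell low, the Klf6 promoter stood at 86.1 and 38.1 CPM, a log2 ratio of 1.18, and all 9 promoters and all 9 sums were higher in 6419c1 (the median log2 ratio over all gene sums was 0.17). Of the 13 clones, 6419c5 was the lowest at 13.34% of all promoter peaks and 6419c1 at 1.64%. Promoter peaks took 38.1% of the reads in 6419c5 and 43.8% in 6419c1. For clones of the same tumour number, the share of all promoters or gene sums higher in either clone was not computed. Between 6499c4 (T cell high) and 6499c3 (T cell low), 8 of 9 sums were lower in 6499c4, where the median over all gene sums was -0.21. The ratio was largest at Klf10, with sums of 178.2 and 476.6 CPM and a log2 ratio of -1.42. A fit with the tumour number as a factor rests on this pair, leaves 1 residual degree of freedom and gave the Klf10 sum an adjusted p of 0.0014 by edgeR, while it called 4.33% of all gene sums.

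Whether a promoter varied together with the rest of its window was asked for each member over the 13 clones, between log2 CPM of the promoter peak and the mean log2 CPM of the other tested peaks. Of 9 correlations, that of Klf10 passed (Pearson r = 0.79, permutation p = 0.0055, adjusted p = 0.0496, with 100000 permutations, two-sided), while its Spearman rho of 0.63 did not (permutation p = 0.025, adjusted p = 0.124). Without 6499c3 and 6419c1 the r of Klf10 was 0.24, so this Pearson r depended on those clones. With the regional level taken off and all 13 clones kept, it was 0.39. The other Klf10 peaks include the second strong peak, whose centre lies 1.5 kb from that of the promoter peak. Klf6 had r = 0.61 (adjusted permutation p = 0.117), Klf4 0.51 and Klf3 0.48 (both adjusted permutation p = 0.216). At Klf2 r was -0.01, and 0.48 without 7160c2 and 6556c3, the clones with the lowest promoters. At Klf5 it was 0.02.

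For each member, the gene on another chromosome whose promoter followed it most closely over the 13 clones was looked up among 11380 to 11898 genes, as a description. These were Prelid3a for Klf2 (r = 0.96), Ncoa2 for Klf3 (0.93), Fanci for Klf4 (0.91), Arfgap1 for Klf5 (0.82), Gatad2b for Klf6 (0.91), Wdr45b for Klf7 (0.87), Rxra for Klf9 (0.92), Vapb for Klf10 (0.93) and Mob3a for Klf13 (0.88). All promoters of a clone share its library and depth.

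Genes that work with the KLF proteins were read at their promoter peaks in 5 lists with 83 entries, beside 12298 genes with a tested promoter peak, of which 0.0% were called and 4.91% had an unadjusted p under 0.05 (1.54% higher and 3.37% lower in T cell high). No gene of the 5 lists was called by edgeR. None was called by DESeq2 either, but DESeq2 gave no adjusted p for Myc. Of the 8 other KLF genes, 4 had a tested promoter peak (Klf1, Klf8, Klf11 and Klf16). Klf8, a CtBP-binding member, had the smallest p of these, with 1.95, 8.41 and 29.1 CPM in T cell high and 2.32, 6.38 and 11.5 CPM in T cell low (log2 fold change 0.72, and 0.11 without 6421c2). Of the 9 SP genes, the relatives that bind the same GC boxes, 5 were tested, all 5 with a log2 fold change below 0 (61.1% of all these genes were below 0) and 1 with an unadjusted p under 0.05. With the regional offset Sp4 was at 0.17 and Sp2 at -0.01, and without 6499c3 Sp3 was at 0.01 and Sp4 at 0.04. The 1 with such a p was the weakly open Sp8, with 1.21, 3.09 and 8.85 CPM in T cell high and 1.66, 6.64 and 20.04 CPM in T cell low (log2 fold change -1.29, adjusted p = 0.712 by edgeR).

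Of 18 cofactors and ubiquitin ligases, 17 were tested, 8 above and 9 below 0, with Fbxw7, the ligase adaptor that marks Klf2, Klf5 and Myc for degradation, at an unadjusted p under 0.05. Fbxw7 had 65.5, 78.0 and 145.2 CPM in T cell high and 85.3, 115.7 and 163.9 CPM in T cell low (log2 fold change -0.43, and -0.13 with the regional offset). Of 20 upstream regulators 19 were tested, 5 above and 14 below 0, and 2 had an unadjusted p under 0.05, both lower in T cell high. Mef2d, a factor that binds MEF2 elements, had 39.9, 61.1 and 77.5 CPM against 65.8, 76.8 and 123.3 CPM (log2 fold change -0.47, adjusted p = 0.693 by edgeR, and -0.14 with the regional offset). Rara, the retinoic acid receptor, had 12.6, 16.8 and 31.6 CPM against 21.5, 24.7 and 40.2 CPM (log2 fold change -0.59, adjusted p = 0.712 by edgeR). With the regional offset Rara was at -0.34 with an unadjusted p of 0.0999.

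All 28 reported KLF targets or partners were tested, of which 4 (Cdh1, Krt8, Krt18 and Krt19) are also epithelial markers above. There were 9 above and 19 below 0, and 2 had an unadjusted p under 0.05. Myc, which Klf10 is known to repress, had 38.2, 52.0 and 63.6 CPM in T cell high and 41.9, 63.9 and 2412 CPM in T cell low. The top value was that of 2699c4, and the log2 fold change of -2.93 (adjusted p = 0.571 by edgeR) became -0.32 without it. Txnip, a restrainer of glucose uptake, had 21.9, 37.5 and 46.0 CPM in T cell high and 37.0, 45.9 and 68.7 CPM in T cell low (log2 fold change -0.46, adjusted p = 0.712 by edgeR, and -0.15 with the regional offset). Txnip, Fbxw7 and Mef2d all lie on chromosome 3, so they need not be separate findings. The part of a shared chromosomal level in their values was not tested.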

How the data were processed

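The deposited table holds whole-number read counts per merged peak, not normalized, made by the authors with featureCounts 1.5.3 without options for read pairs or strand, per the file headers, on alignments whose names say that duplicates were removed. The build mm10, and DESeq2 as a tool, come from the submitters' processing notes. Not given in the sources used here: aligner, peak caller, merging rule, any transposase shift. Both ends of a fragment can be counted, so reads are not independent molecules. Every column was matched to a clone by name.

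Gene bodies came from a RefSeq gene table (GRCm38.p6, 21883 protein-coding genes). A promoter peak is the peak with the highest mean within 1 kb of a gene's start or, where no start was listed (Klf5 and Klf10), of either gene end. Counts were tested in R 4.3.3 with edgeR 4.0.16 (filterByExpr, TMM, quasi-likelihood F-test, two-sided, Benjamini-Hochberg over all peaks or gene sums), with limma 3.58.1 and DESeq2 1.42.0 as alternatives. Correlations were computed with SciPy 1.17.1 and their permutations were drawn with NumPy. The pipeline was tested on simulated data. CPM uses TMM-scaled totals, and log2 CPM a prior count of 2. The members and gene lists were chosen with earlier results of these data known. Named were each member's promoter peak, its window peak with the smallest p, list genes with an unadjusted p under 0.05 (otherwise the smallest p in the list) and the closest promoter on another chromosome. Clones are the replicates, so p-values measure how clones vary. Other settings were leaving out each clone, other scaling and filters, regional offsets, the tumour number as a factor, summed clones and other windows. The only settings added after the data had been seen were 2 for the gene sums (nearest gene only, and without the promoter peak). One gene of the leukocyte marker list is not reported here by name.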

Additional observations from a re-analysis of the deposited data

Results flagged for a closer look

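In 54 groups of 6 or 7 clones, a clone was marked where its gap to the nearest other clone of its group was large against the whole range of the group, which chance does in about 1 of 20 groups. This marked 5 values. The Klf6 window sum of 2838c3 was 440 CPM with the next T cell high clone at 278 CPM. The Klf10 promoter peak of 6499c3 was 206 CPM with the next T cell low clone at 118 CPM, and its Klf10 window sum was 477 CPM with the next at 285 CPM. The Klf4 peak at -1.3 kb stood at 11.5 CPM in 6694c2 with the next T cell low clone at 4.91 CPM. The Klf9 peak at -6.1 kb stood at 62.3 CPM in 7160c2, the library with the fewest reads, with the next T cell high clone at 109 CPM.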

How the results depend on the processing

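No KLF window peak or promoter peak was called under any setting run. Over all peaks, DESeq2 called 48 of 59252 and the fit without 2838c3 called 42 of 59478. With the tumour number as a factor 91 of 59252 were called, and the other fits over all peaks called 0. The number of KLF window peaks at an unadjusted p under 0.05 was 3 of 80, beside 6.83% of all peaks. It ran from 2 to 6 when each clone was left out, where the share over all peaks ran from 5.05% to 10.7%. It was 6 of 80 without 2838c3 (10.7% of all peaks) and 5 of 78 without 6419c5 (6.99%). With the tumour number as a factor it was 9 of 80 (11.05% of all peaks). With clones of a tumour number and group summed it was 5 of 78 (6.74%). With a window of 10 kb it was 0 of 49. For the gene sums (1, Klf2) it ran from 0 to 1 when each clone was left out (0 without 6555c3), and was 0 with a window of 10 kb, 0 for the gene body without flanks, 0 with only peaks whose nearest gene is the member, and 0 without the promoter peak. The tumour number as a factor gave 1 called gene sum, Klf10 (log2 fold change -1.42), in a fit that moved the median of all gene sums to -0.21 and called 782 of 18063. For promoter peaks the number (0) ran from 0 to 1 when each clone was left out (1 without 6556c3, Klf2) and was 1 with the tumour number as a factor (Klf10). The Klf10 correlation of promoter and other peaks was 0.39 minus the regional level and 0.62 with a window of 10 kb. Of 555 log2 fold changes under other settings, 59 had the other sign, and the Klf2 window sum was below 0 in all 23, from -0.48 to -0.24. The cause of these changes was not tested. The replicate numbers follow the order of the samples and pair nothing, so none was used as a block. The tumour number pairs only 6499c3 with 6499c4 across the groups. The depth of the smaller libraries limits the weak peaks, where 1 read in 7160c2 is worth 0.973 CPM.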

Other observations

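Around the MEF2 element of the Klf2 promoter, values of 2 more genes were noted after they had been seen, without passing the test. Mef2c, another factor that binds MEF2 elements, had 1.26, 4.22 and 8.76 CPM (lowest, median and highest) at its promoter peak in T cell high and 1.66, 6.46 and 21.7 CPM in T cell low, a log2 fold change of -0.96 (adjusted p = 0.763 by edgeR) that was -0.47 without 6419c1. S1pr1, the receptor for lymphocyte exit that Klf2 is known to switch on, had 3.37, 15.4 and 20.3 CPM in T cell high and 9.52, 23.5 and 32.8 CPM in T cell low, a log2 fold change of -0.70 (adjusted p = 0.749 by edgeR). It lies on chromosome 3, like Fbxw7, Mef2d and Txnip, and was at -0.50 with the regional offset. Mef2c was at -0.92 with that offset. The groups overlapped at both. Other genes of the ERK5 pathway and of MEF2 in the lists had log2 fold changes of -0.05 at Mapk7, the gene of ERK5, -0.48 at Map2k5, 0.06 at Map3k3 and -0.13 at Mef2a. Thbd, another gene that Klf2 is known to switch on, was at -0.46, and at -0.0014 without 6419c1.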
